A study of Mus musculus with 8 samples.

Results

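Cdo1 and 9 other genes that make, move or break down cysteine, taurine and glutathione were examined in the long bones of Hyp and wild-type (WT) mice. The 10 genes were Cdo1, Csad, Gclc, Gclm, Gss, Cth, Cbs, Slc7a11, Slc6a6 and Got1, chosen by name out of 18193 genes with a value. They were read through every probe set annotated to exactly 1 of these symbols, which gave 18 of the 45037 probe sets tested. The set was proposed with the Hyp and WT values of the same arrays known. For these 10 genes the differences between genotypes, their intervals and their calls at the threshold are therefore a description, with no p-value.

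The series holds 8 microarrays of total RNA from tibia and femur, 4 of Hyp mice and 4 of WT mice. All mice were male and 12 days old. The Hyp allele is a loss of the 3′ part of Phex, here on C57BL/6 mice, and gives a model of X-linked hypophosphatemia, in which the kidney loses phosphate and bone mineralizes poorly. The WT mice carry the strain label wild type, and no other treatment or allele is given for either group. For each RNA 2 bone samples of 1 genotype were pooled, and the labels do not say from how many animals they came. The p-values therefore measure the spread between these RNA samples.

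Cysteine stands at a branch point. It is built from methionine through transsulfuration or taken up as cystine, and it is then either joined to glutamate on the way to glutathione, the main soluble thiol of the cell, or oxidised to cysteine sulfinate on the way to taurine or sulfate. Cysteine dioxygenase, the product of Cdo1, catalyses that oxidation and so draws on the same pool that glutathione synthesis uses.

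The values were log2 signals that had been centred, so that the median of the 8 arrays was 0 within 5e-07 for each probe set. A value of a gene therefore says how an array stood relative to the other arrays, and neither a level of expression nor a comparison of levels between genes can be read from it. For the same reason the bone markers could not be checked for their level. Phex differed by -8.31 and -5.03 (Hyp minus WT, log2) at its 2 probe sets and Fgf23, the phosphate-lowering hormone of bone, by 5.61. WT replicate 3 stood apart in skeletal muscle genes: the mean of 16 muscle markers was 1.93 there and between -1.27 and 0.30 on the other 7 arrays, with the low end in Hyp replicate 2. No muscle marker passed the test between genotypes, though the median difference of the 16 was -0.74, so muscle content cannot be taken as equal. Several results that rest on these arrays are given with and without them.

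Among the 10 genes Cdo1 fell and Slc6a6, the taurine importer, rose in Hyp bone, while the other 8 did not pass the threshold. The fit was limma over all genes with Benjamini-Hochberg adjustment and a threshold of 0.05, which called 12.9% of the 18193 genes in either direction. In single directions 6.54% of all genes rose and 6.32% fell, or 1190 and 1150 genes, against 879 and 1273 after cyclic loess scaling. On single probe sets it called 1 higher and 1 lower of the 18, where 7.13% of all probe sets were called, 3.22% higher and 3.91% lower. The median difference of the 10 genes was 0.10 on the log2 scale, beside 0.025 over all genes. Of the 10 differences 9 were positive, as were 58% over all genes. For 3 of the 10 genes (Cdo1, Slc6a6 and Gss) the arrays of the genotypes did not overlap, against 19.2% of all genes.

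**Figure D1:**
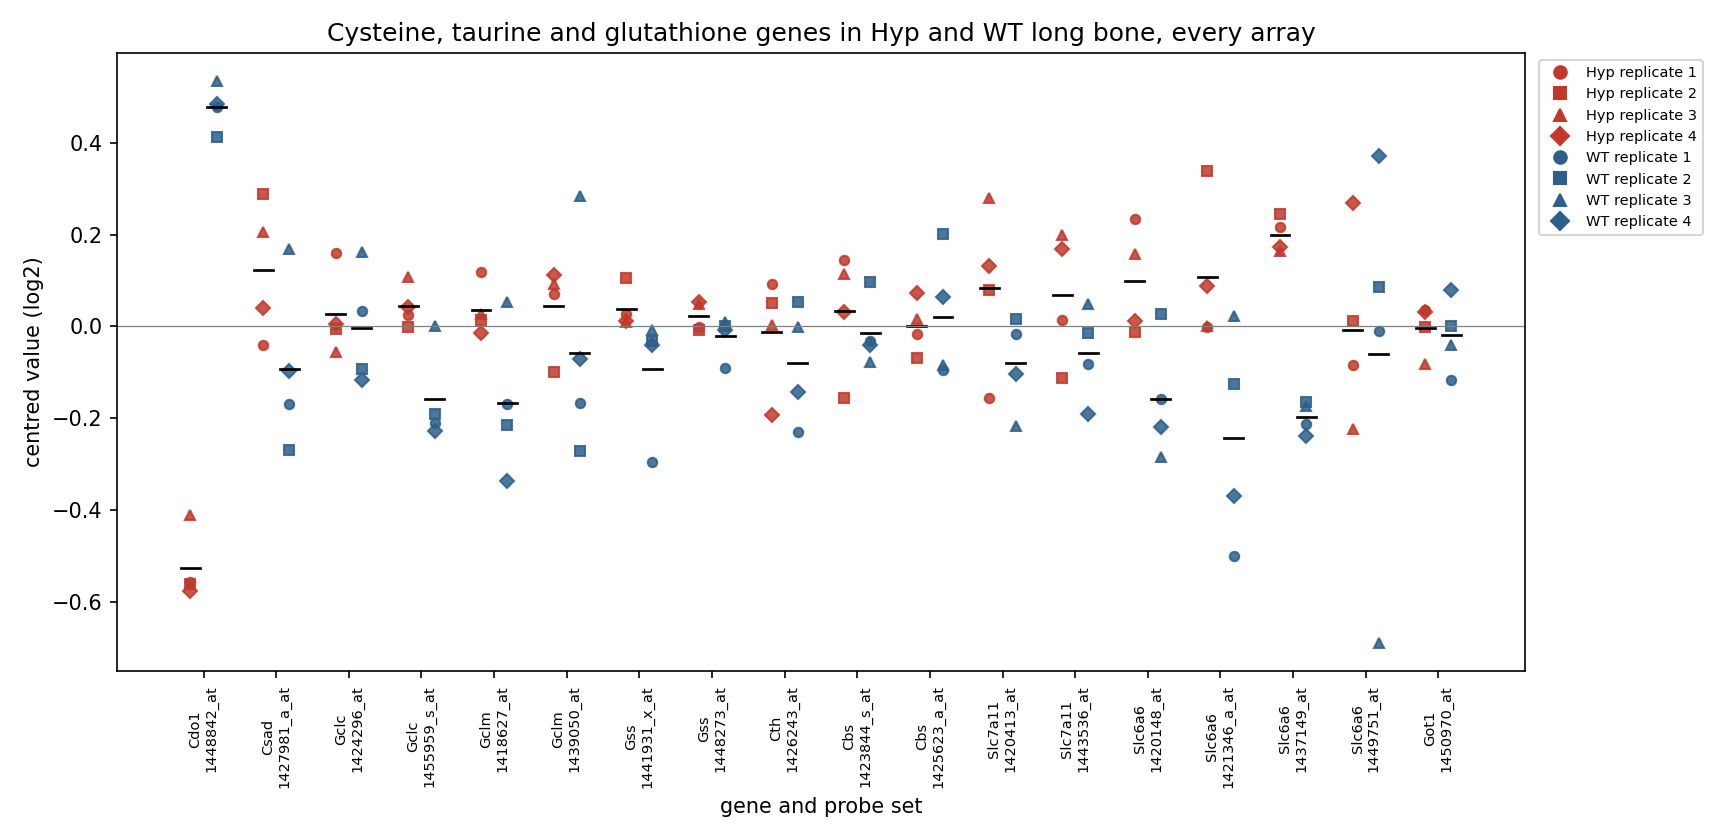
Centred log2 value of the 18 probe sets of the 10 genes on every array, Hyp in red left of WT in blue, with a symbol for each replicate and a black bar for the mean of 4 arrays. Cdo1 is the probe set with the wide gap between genotypes, and only 1 of the 4 probe sets of Slc6a6 (1437149_at) shows a clear one.

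Cdo1 was measured by 1 probe set. Its centred log2 values were -0.56, -0.56, -0.41 and -0.58 in Hyp replicates 1 to 4, against 0.48, 0.41, 0.53 and 0.49 in WT replicates 1 to 4. Every Hyp array lay far below every WT array, and Hyp replicate 3 was the least low of the Hyp arrays. The means were -0.53 ± 0.077 in Hyp and 0.48 ± 0.050 in WT (SD, n = 4 each). The difference was -1.003 ± 0.054 (SE) on the log2 scale with a 95% interval of -1.12 to -0.88, or 2.00-fold lower in Hyp. It was rank 57 among the decreases of all 18193 genes. Leaving out any single array kept it between -1.04 and -0.98, and with the muscle marker mean as a covariate or without Hyp replicate 2 and WT replicate 3 it stayed past the threshold.

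Csad and Got1, which act on the product of Cdo1, had no difference past the threshold over all 8 arrays. Csad, the cysteine sulfinate decarboxylase that makes hypotaurine, had values of -0.041, 0.29, 0.21 and 0.041 in Hyp bone, against -0.17, -0.27, 0.17 and -0.097 in WT bone. The genotypes overlapped through WT replicate 3, the only WT array above 0. The difference was 0.22 ± 0.10 (SE; 95% interval -0.0056 to 0.44), which did not pass. Without WT replicate 3 it was 0.30 ± 0.084 and passed, and without both that array and Hyp replicate 2 it was 0.25 ± 0.078 and did not. Got1, the cytosolic aspartate aminotransferase that also acts on cysteine sulfinate, differed by 0.014 ± 0.056, with arrays between -0.081 and 0.035 in Hyp and between -0.12 and 0.080 in WT. The 95% interval of its difference was -0.11 to 0.14.

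Slc6a6 encodes the sodium-dependent transporter that carries taurine into cells, and its 4 probe sets did not behave alike. Probe set 1437149_at read 0.22, 0.24, 0.16 and 0.17 in Hyp replicates 1 to 4, against -0.21, -0.16, -0.17 and -0.24 in WT replicates 1 to 4. Here the genotypes lay apart with little spread inside each, and the difference was 0.40 ± 0.055 (SE), past the threshold.

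The other 3 probe sets of Slc6a6 overlapped between genotypes and did not pass. The differences were 0.35 ± 0.12 at 1421346_a_at, 0.26 ± 0.085 at 1420148_at and 0.054 ± 0.19 at 1449751_at. At the last of these WT replicate 3 stood at -0.69 and WT replicate 4 at 0.37, a wider range than that of any other probe set of the 10 genes within a genotype. The annotation ties this probe set and 1420148_at to the same sequence record.

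Averaged over its 4 probe sets, Slc6a6 was 0.091, 0.15, 0.025 and 0.14 in Hyp bone and -0.22, -0.044, -0.28 and -0.11 in WT bone. All Hyp arrays lay above all WT arrays. The difference was 0.26 ± 0.0615 (SE; 95% interval 0.13 to 0.40), or 1.20-fold higher in Hyp. This gene-level call was lost without Hyp replicate 2 (0.25 ± 0.068), without WT replicate 1 (0.25 ± 0.069), and without both Hyp replicate 2 and WT replicate 3 (0.21 ± 0.0645). It was also lost with 1449751_at alone, the probe set of the largest spread, or with the probe sets that carry no shared-probe suffix (0.24 ± 0.080).

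**Figure D2:**
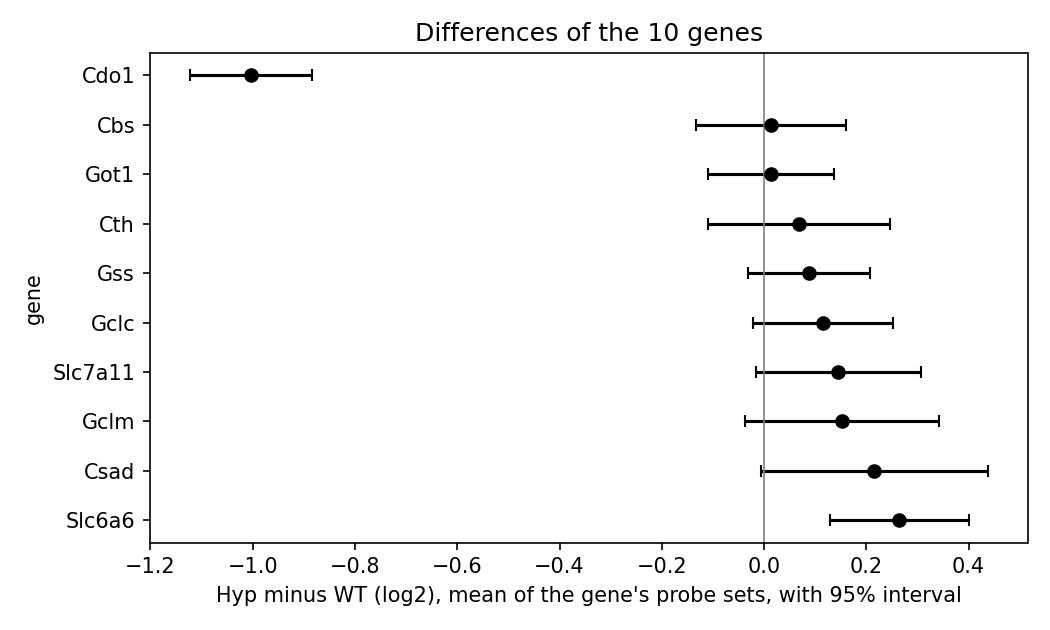
Hyp minus WT difference (log2) of each of the 10 genes, as the mean over its probe sets, with the 95% interval of the fit. Cdo1 stands alone at -1.003 and Slc6a6 is the gene whose interval, 0.13 to 0.40, lies above 0.

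Glutathione synthesis genes had small positive differences, none past the threshold. Glutamate-cysteine ligase, the rate-limiting enzyme, consists of a catalytic subunit from Gclc and a modifier subunit from Gclm. Gclm, averaged over 2 probe sets, was 0.094, -0.042, 0.060 and 0.049 in Hyp bone, against -0.17, -0.24, 0.17 and -0.20 in WT bone. Of the WT arrays 3 lay below all Hyp arrays, and WT replicate 3 lay above them all. The difference was 0.15 ± 0.086 (SE; 95% interval -0.038 to 0.34). Without WT replicate 3 it was 0.25 ± 0.053 and passed the threshold, as it did without both that array and Hyp replicate 2 (0.27 ± 0.053) and with the muscle marker mean as a covariate (0.25 ± 0.063).

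In Gclc too WT replicate 3 was the array that overlapped the Hyp arrays, though it did not lie above them all. Its mean over 2 probe sets was 0.093, -0.0029, 0.027 and 0.024 in Hyp bone and -0.088, -0.14, 0.081 and -0.17 in WT bone. The other WT arrays all lay below the lowest Hyp array. The probe sets differed in size, with 0.20 ± 0.068 (SE) at 1455959_s_at and 0.030 ± 0.079 at 1424296_at. The gene mean differed by 0.12 ± 0.062, and by 0.17 ± 0.0505 without WT replicate 3, which did not pass. Gss, glutathione synthetase, which adds glycine in the last step, differed by 0.088 ± 0.054. Its arrays lay between 0.013 and 0.049 in Hyp and between -0.19 and 0.00039 in WT, where WT replicate 1 was the low one.

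Slc7a11, Cth and Cbs, which supply cysteine, did not pass the threshold over all 8 arrays. Slc7a11, the cystine importer xCT, was -0.071, -0.016, 0.24 and 0.15 in Hyp bone, against -0.049, 0.0015, -0.0835 and -0.15 in WT bone. Hyp replicates 3 and 4 were high and the other Hyp arrays lay within the WT range. The difference was 0.15 ± 0.073 (SE; 95% interval -0.016 to 0.31). In transsulfuration, Cth, the lyase that releases cysteine from cystathionine, differed by 0.068 ± 0.080 with arrays between -0.19 and 0.092 in Hyp and between -0.23 and 0.054 in WT. Cbs, the synthase before it, differed by 0.013 ± 0.066 with arrays between -0.11 and 0.066 in Hyp and between -0.081 and 0.15 in WT. Both intervals span 0 (-0.11 to 0.25 for Cth and -0.13 to 0.16 for Cbs).

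**Figure D3:**
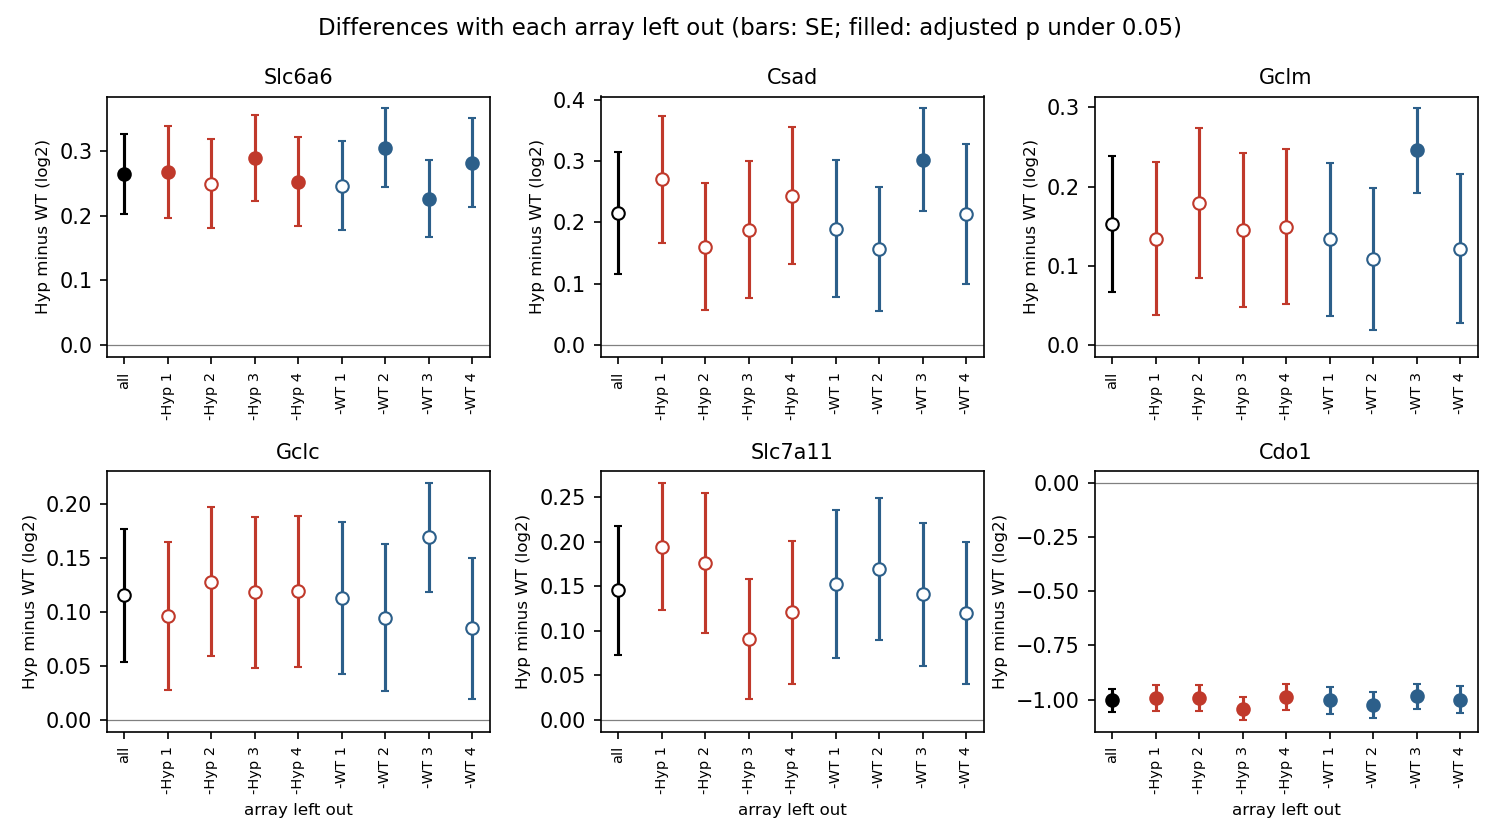
Hyp minus WT difference (log2, with SE) of 6 of the genes over all 8 arrays (black) and with each Hyp array (red) or WT array (blue) left out, with filled points for an adjusted p under 0.05 and a scale of its own in each panel. Gclm and Csad are filled only where WT replicate 3 is left out, Slc6a6 is open without Hyp replicate 2 or WT replicate 1, and Cdo1 stays between -1.04 and -0.98.

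The genes of the pathway outside these 10 were taken from 8 lists drawn up from textbook knowledge, with 113 of 123 genes measured. Genes that stand in several lists, such as Chac1 and Psat1, enter these totals a single time. Earlier results of these data were known when the lists were chosen, so the counts and shares are a description. In the fit over all genes 16 of the 113 rose and 14 fell in Hyp bone, or 26.5%, beside 12.9% of all genes. By list the share called ran from 12.5% in cystine and cysteine transport to 42.9% in peroxidases, peroxiredoxins and thioredoxins. The median difference was 0.045 on the log2 scale, beside 0.025 over all genes. With single arrays left out between 9 and 13 rose and between 12 and 13 fell. The rising genes numbered 9 without WT replicate 1 and 10 without Hyp replicate 1, Hyp replicate 3, Hyp replicate 4 or WT replicate 4.

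Of 10 genes for cysteine breakdown, sulfide and taurine 2 rose and none fell, or 20%, beside 12.9% of all genes. Fmo1, a flavin monooxygenase that oxidises hypotaurine to taurine, had values of 0.29, 0.056, 0.46 and 0.41 in Hyp bone, against -0.49, -0.38, -0.056 and -0.28 in WT bone. The genotypes did not overlap, and the difference was 0.60 ± 0.11 (SE; limma adjusted p = 0.00428). Ado, the dioxygenase that makes hypotaurine from cysteamine and the other thiol dioxygenase of mammals, differed by 0.043 ± 0.045 (limma adjusted p = 0.577), where Cdo1 fell. Got2, the mitochondrial aspartate aminotransferase, rose by 0.17 ± 0.048 (limma adjusted p = 0.0425), and 1 of its 4 probe sets passed on its own. Mpst and Sqor, which handle sulfur on the way to and from hydrogen sulfide, differed by 0.15 ± 0.087 and 0.098 ± 0.061 (limma adjusted p = 0.313 and 0.332).

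In glutathione recycling and breakdown 3 of 12 genes rose and 1 fell, or 33.3%, beside 12.9% of all genes. Dpep1, a membrane dipeptidase that splits cysteinylglycine, was 0.23, 0.30, 0.49 and 0.41 in Hyp bone, against -0.38, -0.47, -0.32 and -0.29 in WT bone. The difference was 0.72 ± 0.067 (SE; limma adjusted p = 8.92e-05). Ggt5, a gamma-glutamyltransferase of the cell surface, rose by 0.52 ± 0.057 (limma adjusted p = 0.000246) and Cndp2, a cytosolic dipeptidase that also takes cysteinylglycine, by 0.28 ± 0.059 (limma adjusted p = 0.0108). These enzymes break down glutathione outside the cell or its dipeptide product. Chac1, the cytosolic enzyme that cleaves glutathione itself, was -0.51, -0.32, -0.18 and -0.36 in Hyp bone and 0.41, 0.18, 0.25 and 0.45 in WT bone. It fell by 0.67 ± 0.082 (limma adjusted p = 0.000502), with no overlap between genotypes. Gsr, glutathione reductase, differed by 0.045 ± 0.061 (limma adjusted p = 0.682).

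Peroxidases and thioredoxin-family genes split by member, with 4 of 21 higher and 5 lower. Gpx7 and Gpx8, the peroxidases of the endoplasmic reticulum, fell by 0.68 ± 0.052 and 0.68 ± 0.062 (SE; limma adjusted p = 4.89e-05 and 8.14e-05). Gpx7 was -0.40, -0.42, -0.26 and -0.41 in Hyp bone, against 0.34, 0.26, 0.33 and 0.31 in WT bone. Prdx4, the peroxiredoxin of the same compartment, fell by 0.46 ± 0.059 as the mean of its 4 probe sets (limma adjusted p = 0.000608). Of these 3 passed, with differences between -0.79 and -0.55, and the other stood at 0.099. Over the probe sets of Prdx4 with no shared-probe suffix the difference was -0.23, still past the threshold. Gpx3, the secreted peroxidase of plasma, fell by 0.39 ± 0.079 (limma adjusted p = 0.00901). In contrast Gpx1, the cytosolic peroxidase, and Prdx2, which is abundant in red cells, rose by 0.33 ± 0.048 and 0.30 ± 0.058 (limma adjusted p = 0.00149 and 0.00752). Gpx4, which reduces lipid peroxides, differed by 0.16 ± 0.053 (limma adjusted p = 0.0738) and passed without WT replicate 3 (0.20, limma adjusted p = 0.0255).

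Of 21 glutathione S-transferases 2 rose and 1 fell, or 14.3%, near the 12.9% over all genes. Gstz1, which also acts in tyrosine breakdown, fell by 0.43 ± 0.049 (SE; limma adjusted p = 0.000341). Gsta4, which conjugates hydroxynonenal, rose by 0.34 ± 0.073 (limma adjusted p = 0.0120), and Gstt3 rose by 0.26 ± 0.077 (limma adjusted p = 0.0489). In the methionine cycle and serine supply 1 of 15 rose and 2 fell, or 20%. Psat1, an aminotransferase of serine synthesis, fell by 0.41 ± 0.059 (limma adjusted p = 0.00129). Mat2b, a regulatory subunit of methionine adenosyltransferase, fell by 0.18 ± 0.050 and Ahcy, which hydrolyses adenosylhomocysteine, rose by 0.20 ± 0.052 (limma adjusted p = 0.0365 and 0.0315). Among 8 cystine and cysteine transporters Slc1a4, a neutral amino acid carrier, fell by 0.30 ± 0.073 (limma adjusted p = 0.0237). Slc3a2, the heavy chain that partners Slc7a11, differed by -0.0078 ± 0.060 (limma adjusted p = 0.951).

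Some of these calls rested on all 8 arrays. Got2 and Abcc1, an export pump for glutathione conjugates, lost the call without any single array, with adjusted p up to 0.121 and 0.132. Mat2b lost it without each array but WT replicate 1 (up to 0.0965), Ahcy without each but Hyp replicate 3 and WT replicate 3 (up to 0.100), and Gstt3 without each but WT replicates 2 and 4 (up to 0.139). Slc7a5, a large neutral amino acid transporter, lost it without each but Hyp replicate 2 and WT replicate 3 (up to 0.136). Slc1a4 lost it without Hyp replicates 2 or 4 or WT replicates 1, 2 or 4 (up to 0.0637). Got2, Abcc1, Gstt3 and Slc7a5 also lost the call under each of median centring, quantile normalization and cyclic loess, with adjusted p between 0.0537 and 0.107. On single probe sets Ahcy, Mat2b, Gstt3, Abcc1 and Slc7a5 did not pass.

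**Figure D4:**
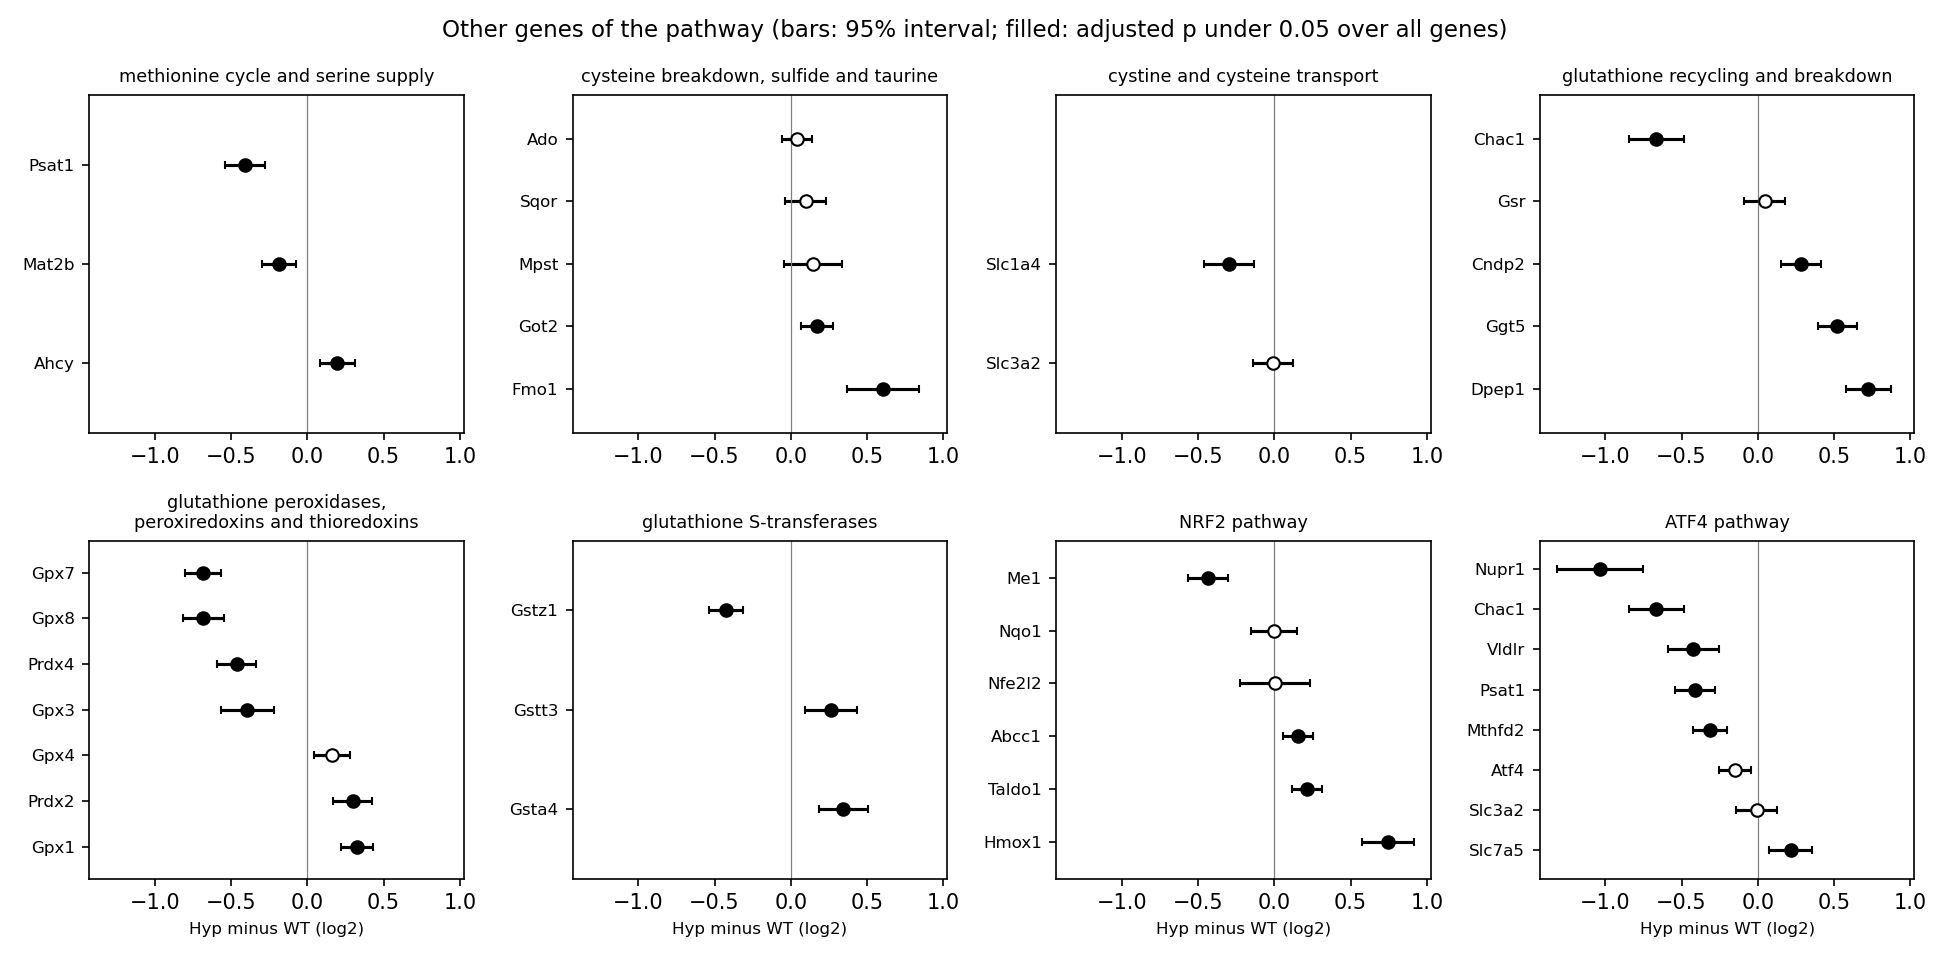
Hyp minus WT difference (log2) with the 95% interval for genes named from each of the 8 pathway lists, filled where the adjusted p over all genes was under 0.05. Gpx7, Gpx8, Prdx4 and Chac1 lie below 0, while Dpep1, Ggt5, Fmo1 and Hmox1 lie above it.

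The regulators NRF2 (encoded by Nfe2l2) and ATF4 are both known to control Slc7a11, and NRF2 also Gclc and Gclm. NRF2 acts through antioxidant response elements and ATF4 through composite sites with C/EBP partners. The 250 bases before each annotated start were searched on both strands for TGATGNAA, the ATF4 composite site, and TGACNNNGC, a core of the antioxidant response element, with N for any base. RefSeq promoters (GRCm38.p6) were at hand for 6 of the 10 genes. Cdo1, Slc6a6, Gclc and Cth had none there and were not searched. The ATF4 composite site was in Slc7a11 (2 matches) and Got1, and in 3.45% of all 32851 promoters. The antioxidant response element core was in Gclm, and in 10.2% of all promoters. A match is a description of the letters and not a mapped binding site. Stretches of 100 bases are shown 5′ to 3′ on the strand of the gene, with the match in capitals, for these genes and for Chac1 and Nupr1, which are among the ATF4 pathway genes that fell and which hold the same letters.
Slc7a11 (chr3:50443616-50443715, minus strand): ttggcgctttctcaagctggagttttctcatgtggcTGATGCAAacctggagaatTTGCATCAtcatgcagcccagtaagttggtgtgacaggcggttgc
Got1 (chr19:43524654-43524753, minus strand): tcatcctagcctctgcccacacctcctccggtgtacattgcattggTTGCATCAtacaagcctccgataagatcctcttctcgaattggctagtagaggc
Gclm (chr3:122245378-122245477, plus strand): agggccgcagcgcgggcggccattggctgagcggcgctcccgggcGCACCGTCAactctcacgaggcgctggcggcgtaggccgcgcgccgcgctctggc
Chac1 (chr2:119351003-119351102, plus strand): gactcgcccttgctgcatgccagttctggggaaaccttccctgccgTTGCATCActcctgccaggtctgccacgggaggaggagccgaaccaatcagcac
Nupr1 (chr7:126625527-126625626, minus strand): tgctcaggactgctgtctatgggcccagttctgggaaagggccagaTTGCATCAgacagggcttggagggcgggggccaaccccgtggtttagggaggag

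Genes with the same ATF4 letters had unlike differences in these arrays, and 5 of the 17 ATF4 pathway genes with a promoter in the table held them. These were Chac1, Nupr1 and Vldlr, which fell, and Asns and Atf3, named after their values were seen. Asns, asparagine synthetase, differed by -0.023 ± 0.074 and Atf3, a stress-induced transcription factor, by 0.051 ± 0.072 (limma adjusted p = 0.878 and 0.697). Nupr1, a stress-induced chromatin protein, was -0.62, -0.86, -0.23 and -0.58 in Hyp bone, against 0.58, 0.23, 0.63 and 0.42 in WT bone. It fell by 1.04 ± 0.13 (SE; limma adjusted p = 0.000485) and Chac1 fell, as above, while Slc7a11 and Got1 differed by 0.15 ± 0.073 and 0.014 ± 0.056. Of 18 ATF4 pathway genes 5 fell and 1 rose, or 33.3%, beside 12.9% of all genes. Besides Nupr1, Chac1 and Psat1 the falling genes were Vldlr, a lipoprotein receptor, with a difference of -0.42 ± 0.076, and Mthfd2, of mitochondrial folate metabolism, with -0.31 ± 0.050 (limma adjusted p = 0.00508 and 0.00264). Chac1 and Psat1 are the same decreases as counted in their lists above. Slc7a5 rose by 0.21 ± 0.063 (limma adjusted p = 0.0488). Atf4 itself differed by -0.15 ± 0.048 (limma adjusted p = 0.0679), and its 3 probe sets pointed in different directions, between -0.48 and 0.21. It passed without WT replicate 2 (-0.18, limma adjusted p = 0.0485).

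Of 15 other NRF2 pathway genes 3 rose and 1 fell, or 26.7%, beside 12.9% of all genes. Hmox1, haem oxygenase 1, was 0.35, 0.27, 0.27 and 0.55 in Hyp bone, against -0.27, -0.52, -0.32 and -0.41 in WT bone, a rise of 0.74 ± 0.077 (SE; limma adjusted p = 0.000179). Taldo1, of the pentose phosphate pathway, and Abcc1 rose by 0.21 ± 0.045 and 0.15 ± 0.045 (limma adjusted p = 0.0115 and 0.0481). Me1, a malic enzyme that makes NADPH, fell by 0.43 ± 0.060 (limma adjusted p = 0.000974). Nfe2l2 and Nqo1, a classical NRF2 target, differed by 0.0052 ± 0.10 and -0.00025 ± 0.068 (limma adjusted p = 0.980 and 0.999). The antioxidant response element core was in 3 of the 14 NRF2 pathway genes with a promoter in the table, and not in Nqo1. It was also in 3 of the 17 such ATF4 pathway genes.

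Several lists of cell type markers also differed between genotypes. Osteoblast markers had 8 of 10 lower and 1 higher. Their mean lay between -0.32 and -0.14 on the Hyp arrays and between 0.18 and 0.33 on the WT arrays. Cdo1, Gpx7, Gpx8 and Prdx4 were likewise lower with no overlap, but so were Chac1, Nupr1, Psat1, Mthfd2, Gstz1 and Me1, among others. Over all genes 19.2% had no overlap between genotypes, in either direction. Osteoclast markers were also lower in Hyp bone with no overlap, though only 1 of 10 was called lower. Their means lay between -0.089 and -0.026 in Hyp and between -0.010 and 0.091 in WT. The means of neutrophil and B lineage markers overlapped between genotypes. Osteocyte markers had 5 of 13 lower and 3 higher, with means between -0.38 and 0.022 in Hyp and between -0.039 and 0.28 in WT. That list holds Phex and Fgf23. Adipocyte markers had 1 of 10 higher and 1 lower, with means between -0.034 and 0.11 in Hyp and between -0.12 and -0.016 in WT. Marker lists of 5 other cell types were higher in Hyp bone with no overlap between genotypes. So were Hmox1, Gpx1, Prdx2, Dpep1, Ggt5 and Fmo1, and also Cndp2, Gsta4 and Taldo1, among others. Monocyte and macrophage markers had 11 of 14 higher, with means between 0.19 and 0.38 in Hyp and between -0.37 and -0.26 in WT. Erythroid markers had 9 of 11 higher, with means between 0.034 and 0.18 in Hyp and between -0.35 and -0.13 in WT. Endothelial markers had 10 of 12 higher, with means between 0.11 and 0.26 in Hyp and between -0.35 and -0.15 in WT. Mast cell and eosinophil markers had 7 of 8 higher, with means between 0.24 and 0.68 in Hyp and between -0.35 and -0.25 in WT. Chondrocyte markers had 7 of 15 higher and 1 lower, with means between 0.0052 and 0.38 in Hyp and between -0.37 and -0.093 in WT. The part of these cell types in the gene results was not tested, and in bulk bone fewer cells of a type and less RNA per cell cannot be told apart.

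**Figure D5:**
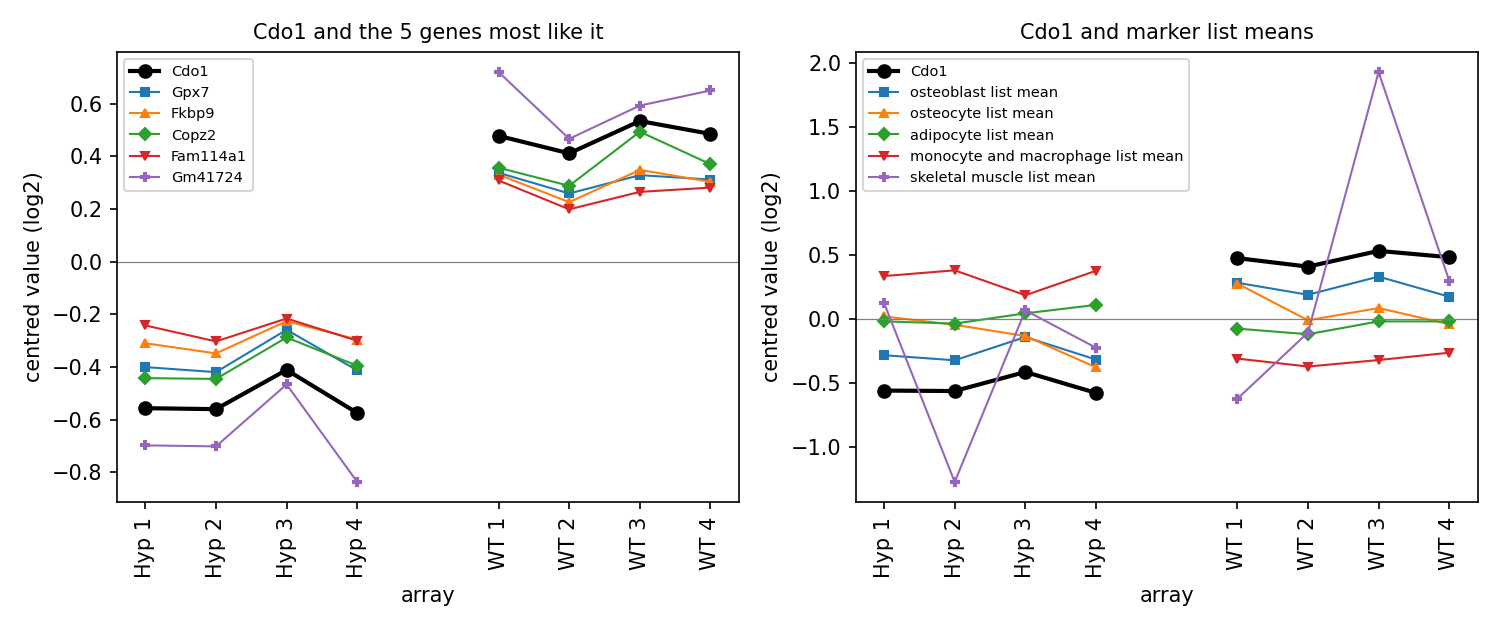
Centred log2 values on the 8 arrays, Hyp left of WT, for Cdo1 (black) with the 5 genes most like it on the left and with the means of 5 marker lists on the right. Hyp replicate 3 is the highest Hyp array for Cdo1, for its 5 like genes, chosen by r with Cdo1, and for the osteoblast list. The muscle list reaches 1.93 in WT replicate 3.

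The genes whose values were most like those of Cdo1 were taken by Pearson's r over the 8 arrays, as a description. They were Gpx7 (r = 0.998), Fkbp9, a folding enzyme of the endoplasmic reticulum (r = 0.997), Copz2, a coat protein of Golgi vesicles (r = 0.996), Fam114a1 (r = 0.995) and Gm41724 (r = 0.994). All these arrays share the split by genotype, and every one of the 5 genes was lower in Hyp bone, by differences between -1.28 and -0.53. Hyp replicate 3 was the highest Hyp array for each of the 5, as for Cdo1. The choice by r over these same arrays favours both traits. The other genes of the 10 were left out of this ranking, so their absence says nothing about them.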

How the data were processed

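The authors' deposited values were on the log2 scale from RMA, per the submitters' processing notes, which give no version. Centring of each probe set is seen in the values and recorded in no label, and the log base is taken from RMA. Of 45101 probe sets 64 controls were left out. One gene symbol was given for 34945 probe sets, several for 932 and none here for 9160. Symbols were updated through a RefSeq table (GRCm38.p6). Probe sets of a gene were averaged per array.

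Hyp minus WT was fitted with limma 3.58.1 in R 4.3.3 (lmFit, eBayes, no covariate, two-sided, Benjamini-Hochberg over all probe sets or all 18193 genes, threshold 0.05), a procedure tested on simulated data. Precision is set by the 8 arrays. The SE of a gene difference had a median of 0.065. The members and lists were chosen with earlier results of these data known. Named genes were the members, 16 preset genes, up to 6 called genes with the smallest p per list, and the 5 most like Cdo1. Because levels cannot be read, dim probe sets were not filtered and no mean-variance trend was fitted.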

Additional observations from a re-analysis of the deposited data

Results flagged for a closer look

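In 12 of 134 sets of 4 arrays of 1 genotype, 1 value was separated from the rest by Dixon's criterion at 95%, which chance meets in about 1 group in 20. Hyp replicate 3 stood above the other Hyp arrays for Cdo1 (-0.411, others -0.575 to -0.557), Gpx7 (-0.259, others -0.42 to -0.401) and Mpst (0.404, others -0.00479 to 0.0354). Hyp replicate 2 stood apart for Cbs (-0.113, others 0.0528 to 0.0655), Nfe2l2 (-0.257, others 0.0155 to 0.0713), Cndp2 (0.24, others 0.0641 to 0.0804) and Abcc1 (0.0941, others 0.0401 to 0.0472). WT replicate 1 was low for Gss, at -0.192 on the gene mean (others -0.0237 to 0.000387) and -0.294 at probe set 1441931_x_at (others -0.0399 to -0.00874). WT replicate 3 was high for Slc7a5 (0.0201, others -0.189 to -0.164) and for the Gclc probe set 1455959_s_at (0.000781, others -0.229 to -0.191). WT replicate 2 was low for Gstz1 (0.157, others 0.216 to 0.228).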

How the results depend on the processing

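Cdo1 was called under all 20 alternatives, between -1.04 and -0.97, and Slc6a6 under 13. Slc6a6 lost the call with probe sets that have no shared-probe suffix (0.24), with the probe set of the largest SD (0.054), without both Hyp replicate 2 and WT replicate 3 (0.21), and at a threshold of 0.01 or with at least 1.5-fold (0.26 in both). Of the 10 genes 0 were called higher with no suffix, with the largest SD, at 0.01 and at 1.5-fold. With the muscle mean as covariate 2 were. Of the 18 probe sets 3 were higher with array weights, 2 without both arrays and 0 at 1.5-fold. Pathway genes called numbered 6 higher at 0.01, 3 higher and 4 lower at 1.5-fold, and 9 lower with no suffix. Probe sets called were 2206 higher with array weights, 885 higher and 1153 lower with no suffix, 458 and 844 at 0.01, and 234 and 474 at 1.5-fold. Genes called were 407 and 618 at 0.01, and 125 and 207 at 1.5-fold. With the replicate block, pathway genes called higher were 10. In the labels same-numbered arrays share only a number. Their correlations of deviations were 0.145, -0.044, 0.262 and 0.179, beside -0.274 to 0.199 for pairs of unlike number. Whether they share a processing step was not tested. Under the block Got2, Abcc1, Gstt3, Slc7a5, Ahcy, Mat2b and Slc1a4 were among those that lost the call (limma adjusted p between 0.0559 and 0.0883).

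With single arrays left out, called probe sets ranged from 625 to 2125 higher and 1055 to 1975 lower, called genes from 605 to 1437 higher and 805 to 1153 lower, probe sets of the 10 genes from 1 to 4 higher, the 10 genes from 0 to 3 higher, and pathway genes from 9 to 13 higher and 12 to 13 lower. The low ends of the counts over all probe sets came without WT replicate 1 and the high ends without WT replicate 3. Slc6a6 ranged from 0.2257 to 0.30. Differences that were never called changed sign: Cbs ranged from -0.015 to 0.062, Got1 from -0.018 to 0.047, Slc3a2 from -0.043 to 0.021, Nfe2l2 from -0.067 to 0.094 and Nqo1 from -0.055 to 0.036. Under other settings Nfe2l2 was -0.0059 with median centring, -0.041 with cyclic loess and -0.071 with the probe set of the largest SD, which also gave Gsr -0.0076. Quantile normalization gave Cbs -0.0070 and Got1 -0.0017, and cyclic loess gave Got1 -0.0061. Slc3a2 was 0.033 and Nqo1 0.018 without both arrays, and Slc3a2 was 0.024 with the muscle covariate. Atf4 was 0.013 with no suffix. For 51 other named genes 855 of 1011 comparisons kept direction and side of the threshold, 120 lost the call, 8 gained it and 28 changed sign. The causes were not tested.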
